A study of Homo sapiens with 6 samples.

Results

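The genes described here are 35 members of the endoplasmic reticulum (ER) stress system: 15 chaperones and folding enzymes of the ER, 4 genes of ER-associated degradation, 3 sensors and transducers of the unfolded protein response, 8 genes of the ATF4 branch and 5 enzymes of serine synthesis and mitochondrial one-carbon metabolism. They were taken by gene name from a table of 62703 genes, where each name occurred once, and all 35 passed the filter on low values. The samples were 786-O cells, an established line from a kidney carcinoma of clear cell type without functional VHL protein, grown in RPMI-1640 with serum. They formed 2 groups, 3 libraries from cells overexpressing OGT and 3 from control cells labelled wild type. OGT, the O-GlcNAc transferase, adds N-acetylglucosamine to serines and threonines of nuclear and cytosolic proteins. The vector, the control construct and whether the overexpressing cells are 1 clone or a pool is not stated. Whether libraries of a group came from separate cultures is not stated either, so the p-values reflect only how much these samples varied, which may be technical. In bulk RNA, more cells that express a gene and more of its RNA per cell cannot be told apart.

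The unfolded protein response adjusts the folding capacity of the ER to its load of secretory and membrane proteins. Its sensors are IRE1 (gene ERN1), which splices XBP1 mRNA, ATF6, which is cut in the Golgi and released as a transcription factor, and PERK (gene EIF2AK3), which phosphorylates eIF2α and thereby favours translation of ATF4. ATF6 and spliced XBP1 act largely on ER chaperone and degradation genes, whereas ATF4 acts on genes of amino acid supply and on DDIT3, which encodes CHOP. ATF4 is also induced by eIF2α kinases that answer to other stresses, so the ATF4 branch and the ER chaperones can move apart. Gene-level values do not separate spliced from unspliced XBP1, and they say nothing of phosphorylation or cleavage.

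Values are TPM, a transcript level scaled by transcript length and by library, as the authors deposited it. Each change is the OGT mean minus the control mean of log2(TPM + 1), a scale that understates the change of low genes, and calls are limma adjusted p-values below 0.05 over 12645 genes tested. OGT itself stood at 352.74, 352.92 and 270.87 TPM in the OGT libraries, against 23.11, 22.57 and 23.62 TPM in the control libraries. Renal and carcinoma markers were present (PAX8 between 124.78 and 209 TPM, KRT8 between 1185.96 and 1322.73 TPM), and UMOD and AQP2 of other tubule cells were listed at 0. Of 8 leukocyte, endothelial, fibroblast and mural markers 6 reached at most 4.22 TPM. The others were PTPRC, at 12.23 TPM in control replicate 1 and at most 0.07 TPM elsewhere, and CD68, at 101.55 to 119.57 TPM in OGT libraries and 60.59 to 67.17 TPM in control libraries. The 3 leukocyte markers summed to 101.55 to 119.69 TPM in OGT libraries and 66.82 to 72.82 TPM in control libraries. Nearly all of it was CD68 except in control replicate 1, where PTPRC gave 12.23 of 72.82 TPM. CD3E reached at most 0.23 TPM. The part of these markers in the results was not tested. Most tested genes stood higher in the OGT libraries: over the genes tested the median change was 0.30 on the log2 scale. It was 0.019 after quantile normalization, -0.0855 after centring each library on its median, and 0.027 once the dependence on GC content and transcript length had been removed from each library. Counts of called genes by group and list are therefore given as deposited and under these 3 other scalings. Values of single genes are as deposited unless another scaling is named.

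As deposited, 25 of the 35 members rose and 3 fell with OGT overexpression, where 39.1% of all genes tested rose and 9.70% fell. With the GC and length trend removed the members numbered 19 higher and 4 lower, where 16.0% and 12.8% of all genes were called. After median centring they numbered 13 higher and 9 lower (15.3% and 24.2% of all genes), and after quantile normalization 20 higher and 4 lower (20.2% and 17.8%). The median log2 change of the members was 0.57 as deposited, 0.26 without the trend, 0.18 after centring and 0.37 after quantile normalization. In 26 members every OGT library lay above every control library, which held for 46.2% of all genes tested, and in 3 every OGT library lay below, which held for 12.4%. The remaining 6, DNAJB9, SDF2L1, ATF4, TRIB3, NUPR1 and PHGDH, had overlapping groups.

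A set of 10 members was called higher under all 4 scalings: HSPA5, HSP90B1, DNAJB11, PDIA3, PDIA4, PDIA6, CANX, SEL1L, VLDLR and PSAT1. Among all genes that had a value under each scaling, 9.68% were higher in all 4. CRELD2, MANF and SHMT2 were lower in all 4, as were 7.35% of all genes. The 10 that rose are thus mainly chaperones and disulfide isomerases of the ER lumen and membrane. ATF4 itself is in neither set.

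**Figure D1:**
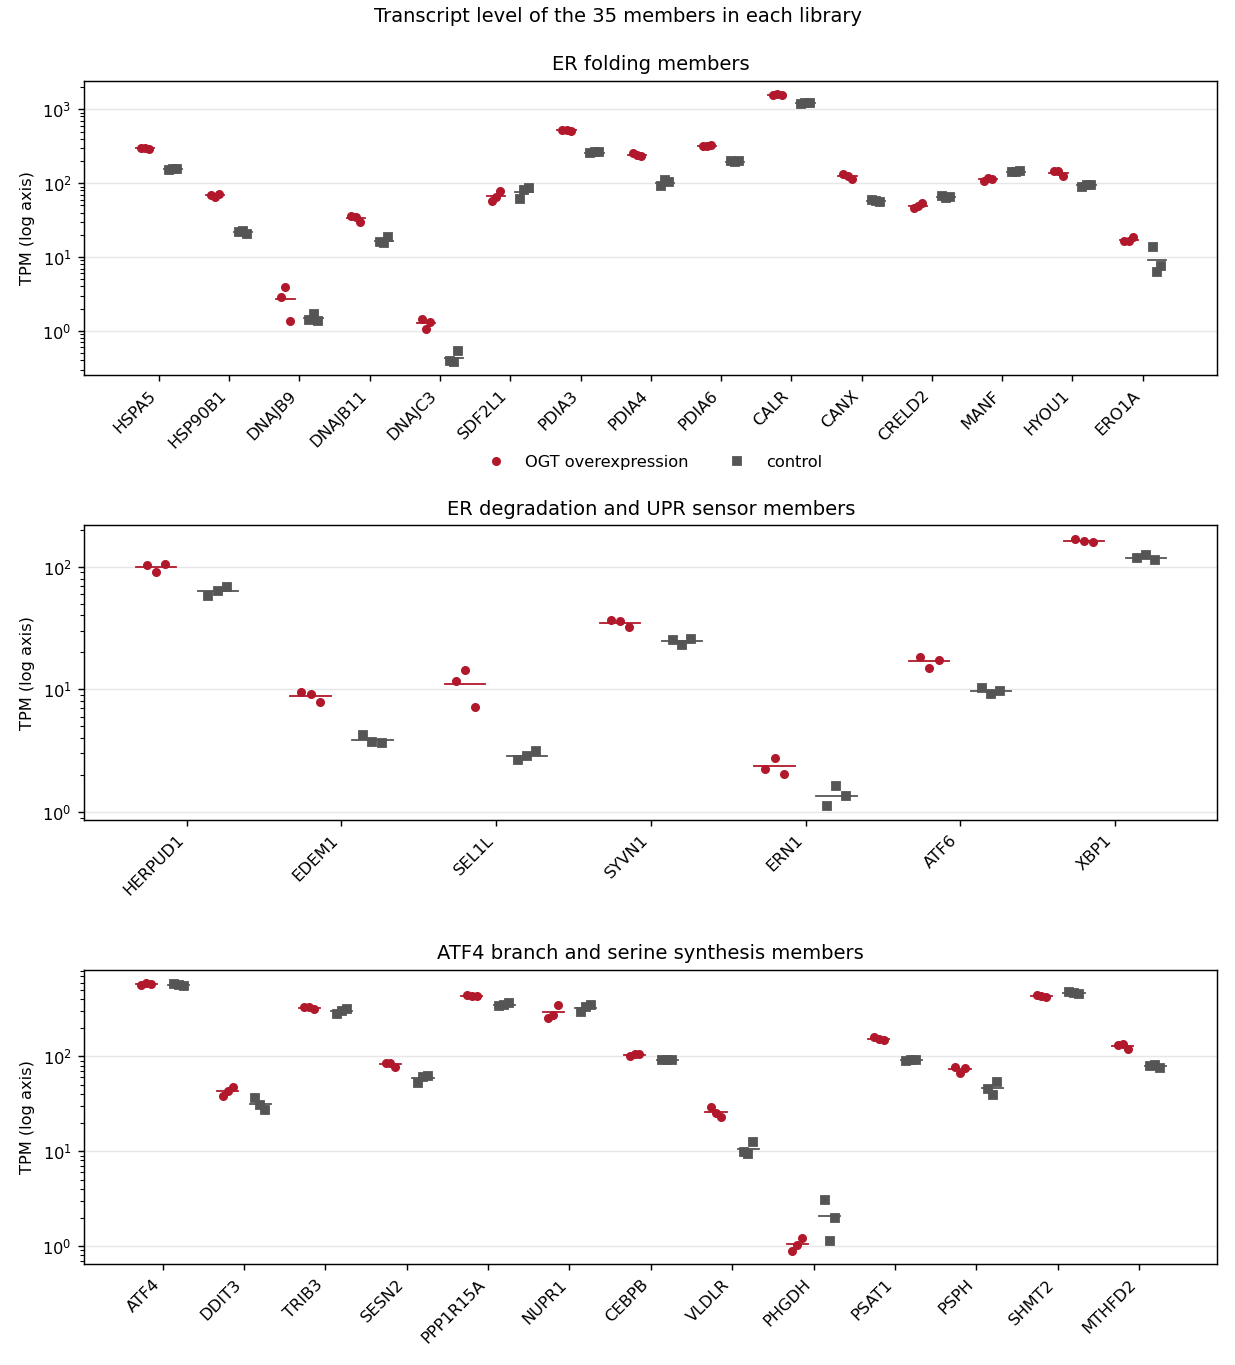
Level of each of the 35 members in TPM on a log axis, in 3 panels by role. Red circles are the 3 OGT libraries, grey squares the 3 control libraries and lines the group means; HSP90B1 lies between 65.63 and 71.11 TPM in OGT libraries and between 20.8 and 22.24 TPM in control libraries, while the ATF4 points overlap.

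Several folding genes carry the ER stress response element in their promoter, and the sequences below show that members with the same element stood on both sides of 0. This element (ERSE) is CCAAT, any 9 bases and CCACG, and it is known to be bound by NF-Y together with ATF6 or XBP1. Promoters of 250 bases before to 50 bases after each RefSeq start (GRCh38.p14) were available for 31 of the 35 members and were searched on both strands. ERSE letters were found in 7 of the 31 members (22.6%) and in 25 of all 27305 genes of that table (0.0916%). The element was first described in chaperone promoters, so its presence in them is no finding. A second form, ERSE-II (ATTGG, any base, CCACG), was found in 3 members (9.68%) and in 0.0696% of all genes. HYOU1 held a pair of ERSE-II matches. The UPRE core TGACGTGG was found in 1 member, HYOU1, where it overlaps the ERSE-II farther from the start, and in 0.927% of all genes. A C/EBP-ATF element (TGATG, any base, AA) was found in 1 member, HERPUD1, and in 4.46% of all genes. The windows below are 60 bases long, read 5′ to 3′ on the strand of the gene, with the letters of ERSE or ERSE-II in capitals, given in the other orientation as CGTGG and ATTGG or CCAAT. They are HSP90B1 (chr12:103930301-103930360, plus strand), CANX (chr5:179698758-179698817, plus), HSPA5 (chr9:125241370-125241429, minus), PDIA6 (chr2:10812832-10812891, minus), HERPUD1 (chr16:56932001-56932060, plus), HYOU1 (chr11:119057249-119057308, minus), XBP1 (chr22:28800582-28800641, minus), CALR (chr19:12938364-12938423, plus), SDF2L1 (chr22:21642090-21642149, plus) and CRELD2 (chr22:49918534-49918593, plus), in the order of their log2 change as deposited.
HSP90B1: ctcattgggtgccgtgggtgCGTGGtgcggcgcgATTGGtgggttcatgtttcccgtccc
CANX: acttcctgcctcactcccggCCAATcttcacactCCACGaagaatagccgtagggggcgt
HSPA5: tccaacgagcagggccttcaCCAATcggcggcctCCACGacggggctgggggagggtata
PDIA6: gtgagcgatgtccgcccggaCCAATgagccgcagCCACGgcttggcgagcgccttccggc
HERPUD1: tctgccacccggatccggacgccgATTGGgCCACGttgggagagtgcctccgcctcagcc
HYOU1: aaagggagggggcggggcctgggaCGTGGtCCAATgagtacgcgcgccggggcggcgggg
XBP1: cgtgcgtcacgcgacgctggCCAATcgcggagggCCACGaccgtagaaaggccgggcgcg
CALR: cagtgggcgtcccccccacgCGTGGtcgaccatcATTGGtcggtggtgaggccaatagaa
SDF2L1: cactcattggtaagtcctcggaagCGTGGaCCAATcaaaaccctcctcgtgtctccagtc
CRELD2: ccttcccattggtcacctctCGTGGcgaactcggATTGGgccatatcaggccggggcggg

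Of the 7 members with ERSE letters, HSP90B1, CANX, HSPA5, PDIA6, XBP1 and CALR rose as deposited and CRELD2 fell, while after median centring XBP1 and CALR were not called. HSP90B1 held a pair of such matches, at -194 to -176 and at -89 to -71 from its start, and had the largest log2 change of the 7, 1.63. In CRELD2 the match lies at -80 to -62, in the other orientation, and in HSPA5 at -66 to -48. Of the 18 other genes of the promoter table with ERSE letters, 7 were tested, of which 3 rose and 1 fell as deposited. These counts, taken as deposited only, are near the shares of all genes tested (39.1% higher and 9.70% lower). HYOU1, with a pair of ERSE-II matches (log2 change 0.57), and HERPUD1, with 1 (0.65), rose as deposited, whereas SDF2L1, which holds ERSE-II too, was not called. These matches are letters only, and no binding was measured. Whether their number, place or orientation had a part in the changes was not tested.

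**Figure D2:**
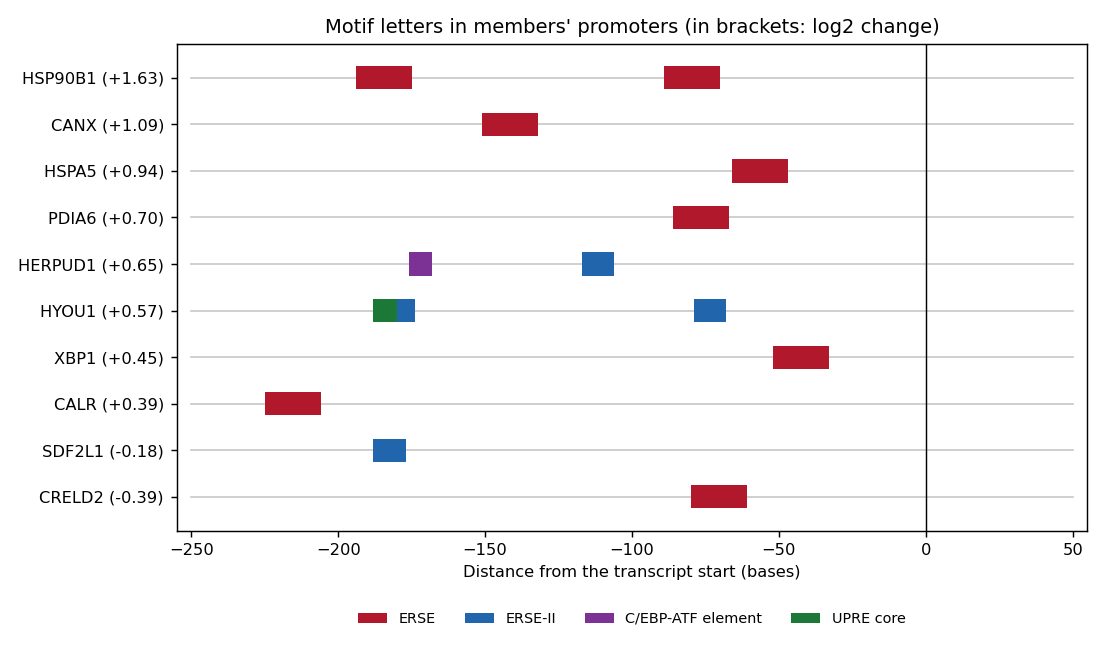
Position of motif letters from 250 bases before to 50 bases after the RefSeq start in the 10 members that hold any, 1 start a gene, ordered by log2 change as deposited (in brackets, HSP90B1 at the top and CRELD2 at the bottom). ERSE lies at -66 to -48 in HSPA5 and, in the other orientation, at -80 to -62 in CRELD2. HSPA5 rose and CRELD2 fell under all 4 scalings, and the part of the element in this was not tested. SDF2L1 changes sign to 0.13 once the GC and length trend is removed.

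Among the 15 ER folding members 11 rose and 2 fell as deposited, against 9 and 2 without the GC and length trend, 7 and 3 after median centring, and 9 and 2 after quantile normalization. Of all genes tested 39.1% rose and 9.70% fell as deposited, and 16.0% and 12.8% without the trend. The shares were 15.3% and 24.2% after median centring, and 20.2% and 17.8% after quantile normalization. The 11 include DNAJC3, which passed the filter on low values through the OGT libraries alone and so had to be higher there. The summed level of the 15 members was 3584.58, 3599.96 and 3532.45 TPM in the OGT libraries, against 2332.52, 2415.48 and 2433.19 TPM in the control libraries. The OGT mean was thus 1.49 times the control mean. CALR alone contributed the largest single share of these sums.

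HSP90B1, which encodes GRP94, the HSP90 paralog of the ER lumen, had the largest rise of the 35 on the log2(TPM + 1) scale. As a ratio of means SEL1L rose more, 3.85 against 3.20 for HSP90B1, and with a pseudocount of 0.1 it had 1.85 against 1.67. HSP90B1 stood at 70.23, 65.63 and 71.11 TPM in OGT libraries, against 21.62, 22.24 and 20.8 TPM in control libraries. Its log2 change was 1.63 (SE 0.067, limma adjusted p = 2.98e-05), and 1.03 without the GC and length trend. HSPA5 encodes BiP, the HSP70 of the ER and the usual marker of the response. It measured 303.17, 300.16 and 293.49 TPM in OGT libraries, against 150.75, 157.61 and 156.37 TPM in control libraries. The groups were far apart compared with their spread, with a difference of 0.94 in log2 units (SE 0.039, limma adjusted p = 3.08e-05), although without the trend the change was 0.36. HSPA5 lies on chromosome 9, 125234853 to 125241330, minus strand, and HSP90B1 on chromosome 12, 103930107 to 103953645, plus strand, in GENCODE release 29 (GRCh38).

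PDIA3, PDIA4 and PDIA6 are protein disulfide isomerases, which form and rearrange disulfide bonds in secretory proteins, and all 3 rose under all 4 scalings. PDIA4, also called ERp72, measured 255.92, 242.49 and 233.83 TPM in OGT libraries, against 91.26, 108.86 and 103.29 TPM in control libraries (log2 change 1.27, SE 0.074, limma adjusted p = 6.5e-05). Its change was 1.04 without the GC and length trend. PDIA3, also called ERp57 and the partner of calnexin and calreticulin, measured 521.68, 531.12 and 509.99 TPM in OGT libraries, against 253.9, 260.7 and 264.08 TPM in control libraries (log2 change 1.00, limma adjusted p = 2.1e-05). PDIA6 measured 316.4, 316.24 and 325.12 TPM in OGT libraries, against 197.24, 195.28 and 196.77 TPM in control libraries (log2 change 0.70, limma adjusted p = 4.31e-05). Without the trend PDIA3 was at 0.35 and PDIA6 at 0.21, both smaller than that of PDIA4.

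CANX encodes calnexin, the membrane-bound lectin chaperone of glycoproteins, and CALR encodes calreticulin, its soluble counterpart. CANX measured 133.25, 123.47 and 113.7 TPM in OGT libraries, against 58.39, 57.69 and 55.5 TPM in control libraries (log2 change 1.09, limma adjusted p = 8.33e-05). CALR, the most abundant of the 35, measured 1568.35, 1588.47 and 1564.3 TPM in OGT libraries, against 1169.72, 1206.57 and 1215.04 TPM in control libraries (log2 change 0.39, limma adjusted p = 1.45e-04). Both rose as deposited, but CALR had a log2 change of 0.0058 after median centring, where it was not called. Without the GC and length trend the pair lay together, CANX at 0.36 and CALR at 0.35.

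Of the 3 J-domain cochaperones of BiP, DNAJB11 was called under all 4 scalings and the others were not. DNAJB11, or ERdj3, measured 35.76, 34.87 and 30.16 TPM in OGT libraries, against 16.07, 15.41 and 18.67 TPM in control libraries (log2 change 0.97, limma adjusted p = 5.54e-04), and 0.68 without the trend. DNAJC3, or p58IPK, was low, at 1.47, 1.08 and 1.31 TPM in OGT libraries and 0.39, 0.38 and 0.53 TPM in control libraries. It was called higher as deposited (log2 change 0.67, or 1.38 with a pseudocount of 0.1, limma adjusted p = 0.0212), but had -0.11 without the trend, and its call was lost without control replicate 2 (0.65, limma adjusted p = 0.0505). It passed the filter on low values through the OGT libraries alone, so it had to be higher there, and without any 1 of them it was not tested. Its call therefore lends nothing to the counts of members that rose. DNAJB9, or ERdj4, measured 2.84, 3.89 and 1.38 TPM in OGT libraries and 1.42, 1.72 and 1.37 TPM in control libraries, and the groups overlapped. It was not called (log2 change 0.51, limma adjusted p = 0.184), but without OGT replicate 3 it was (0.79, limma adjusted p = 0.031), and it too had -0.11 without the trend.

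HYOU1 encodes GRP170, a nucleotide exchange factor for BiP. It measured 146.54, 143.89 and 125.4 TPM in OGT libraries, against 89.77, 95.42 and 94.04 TPM in control libraries (log2 change 0.57, limma adjusted p = 8.36e-04), and it was not called after median centring (0.18). ERO1A encodes the oxidase that recharges disulfide isomerases and is also known as a hypoxia-responsive gene. It measured 16.31, 16.28 and 18.56 TPM in OGT libraries, against 13.85, 6.19 and 7.56 TPM in control libraries, where replicate 1 stood well above the others. Its log2 change of 0.89 (limma adjusted p = 0.0261) lost its call under each of the 3 other scalings. It was also lost without any 1 of OGT replicates 1, 2 and 3 or control replicates 2 and 3, at log2 changes from 0.68 to 0.92 (limma adjusted p from 0.0567 to 0.0731).

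CRELD2 and MANF, small secreted or ER-resident proteins known as inducible targets of the response, fell under all 4 scalings, whereas HSPA5 and HSP90B1 rose under all 4. CRELD2 measured 46.51, 49.77 and 53.18 TPM in OGT libraries, against 67.46, 62.74 and 65.86 TPM in control libraries (log2 change -0.39, SE 0.069, limma adjusted p = 0.00386). MANF measured 108.58, 118.35 and 113.06 TPM in OGT libraries, against 140.23, 143.3 and 147.03 TPM in control libraries (log2 change -0.34, SE 0.050, limma adjusted p = 0.00178). Neither pair of groups overlapped, and without the GC and length trend the changes were -0.25 for CRELD2 and -0.23 for MANF. SDF2L1, an ER protein that works with ERdj3, measured 57.57, 64.25 and 77.86 TPM in OGT libraries and 60.45, 81.37 and 86.28 TPM in control libraries. It was not called (log2 change -0.18, limma adjusted p = 0.38), its change was 0.13 without the trend, and after median centring it was called lower (-0.57, limma adjusted p = 0.0384).

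**Figure D3:**
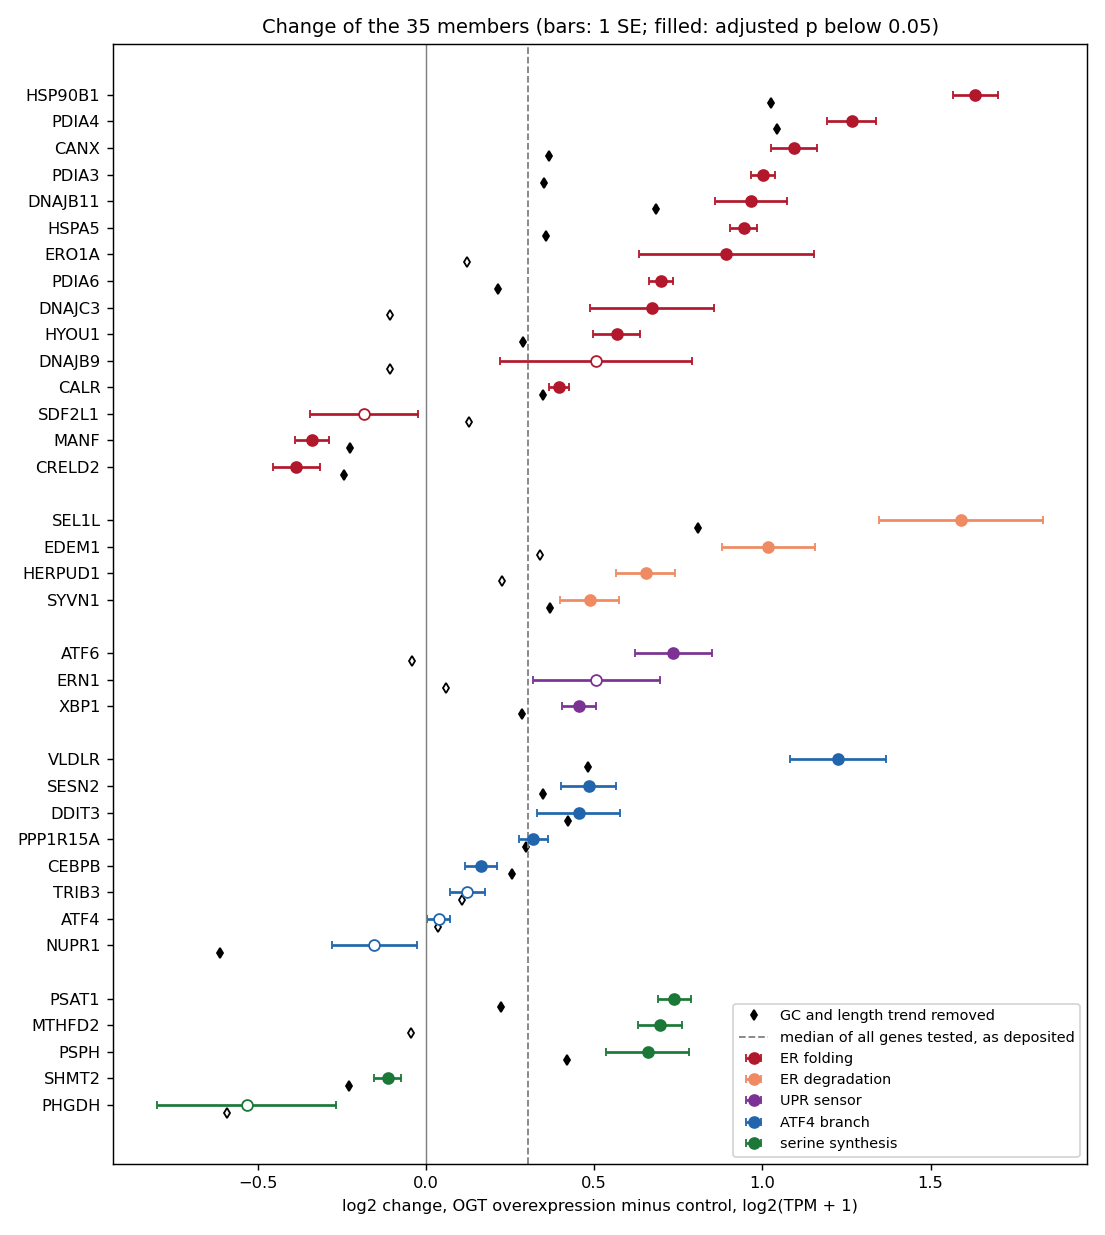
Log2 change of each member, OGT overexpression minus control, by role, with bars of 1 SE (3 libraries a group) and filled symbols for a limma adjusted p below 0.05. Black diamonds (filled where called) give the change without the GC and length trend, and the dashed line marks the median of all genes as deposited, 0.30; HSP90B1 and PDIA4 keep diamonds above 1, whereas DNAJC3, DNAJB9, ATF6 and MTHFD2 move to slightly below 0 and SDF2L1 to 0.13.

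All 4 members of ER-associated degradation rose as deposited, whereas 2 of them were called without the GC and length trend, 2 after median centring and 3 after quantile normalization, with 0 lower in each. As deposited 0 were lower even when the limma p was left unadjusted. Over all genes tested the shares higher were 39.1% as deposited, 16.0% without the trend, 15.3% after median centring and 20.2% after quantile normalization. The shares lower were 9.70%, 12.8%, 24.2% and 17.8% in the same order, so with 4 members a count of 0 says little. SEL1L and SYVN1 encode the adaptor and the ubiquitin ligase (HRD1) of the main retrotranslocation complex. SEL1L measured 11.67, 14.38 and 7.14 TPM in OGT libraries, against 2.63, 2.85 and 3.15 TPM in control libraries (log2 change 1.59, SE 0.24, limma adjusted p = 0.00202). OGT replicate 3 was the lowest of its group and still above every control library, and SEL1L was the 1 degradation member called under all 4 scalings, at 0.81 without the trend. SYVN1 measured 36.69, 36.21 and 31.95 TPM in OGT libraries, against 25.12, 22.96 and 25.85 TPM in control libraries (log2 change 0.49, limma adjusted p = 0.0039). Its call was lost after median centring (0.098) and after quantile normalization (0.19), and its exons overlap those of FAU on the same strand, so it is uncertain.

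EDEM1, which helps to extract misfolded glycoproteins from the folding cycle, measured 9.56, 9.09 and 7.93 TPM in OGT libraries, against 4.21, 3.75 and 3.63 TPM in control libraries (log2 change 1.02, limma adjusted p = 0.00126). HERPUD1 encodes a membrane scaffold of the same complex. It measured 102.74, 91.13 and 105.54 TPM in OGT libraries, against 57.35, 63.47 and 68.69 TPM in control libraries (log2 change 0.65, limma adjusted p = 0.00115). The groups of both genes were well separated as deposited, yet neither was called without the GC and length trend, where EDEM1 was at 0.34 and HERPUD1 at 0.23. HERPUD1 was also not called after median centring, at 0.26.

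Of the 3 sensors and transducers, ATF6 and XBP1 rose as deposited, 1 was called without the GC and length trend (XBP1), 1 after median centring (ATF6) and both after quantile normalization, and none was lower (0 as deposited, with the limma p unadjusted as well). All genes tested had shares of 39.1% higher and 9.70% lower as deposited, and 16.0% and 12.8% without the trend. The shares were 15.3% and 24.2% after median centring, and 20.2% and 17.8% after quantile normalization. With 3 members these counts say little. XBP1 measured 168.54, 162.12 and 157.79 TPM in OGT libraries, against 117.72, 123.87 and 114.21 TPM in control libraries (log2 change 0.45, limma adjusted p = 5.75e-04). Its change was 0.28 without the trend and 0.065 after median centring. ATF6 measured 18.37, 14.92 and 17.41 TPM in OGT libraries, against 10.27, 9.17 and 9.73 TPM in control libraries (log2 change 0.74, limma adjusted p = 0.00212). Its reference transcript is long and poor in GC, 7496 bases at 41.3%, and its change was -0.042 without the trend. ERN1, which encodes IRE1α, measured 2.25, 2.76 and 2.06 TPM in OGT libraries and 1.11, 1.62 and 1.36 TPM in control libraries. Its groups did not overlap, but it was not called under any of the 4 scalings (as deposited 0.51, limma adjusted p = 0.0614), though it was in limma without trend or robust.

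ATF4 mRNA had the change nearest to 0 of the 35 as deposited. It measured 573.03, 590.95 and 580.39 TPM in OGT libraries and 581.63, 562.61 and 556.23 TPM in control libraries, with overlapping groups (log2 change 0.037, SE 0.034, limma adjusted p = 0.409). The change was 0.037 without the GC and length trend and -0.022 after quantile normalization, neither called, and after median centring ATF4 was called lower (-0.35, limma adjusted p = 6.95e-04). ATF4 protein is regulated mainly by translation, which was not measured here. In the ATF4 branch as a whole 5 of 8 members rose as deposited and 0 were lower, 0 also when the limma p was left unadjusted. The balance was 5 higher and 1 lower without the trend, 3 and 0 after quantile normalization, but 1 and 4 after median centring. Among all genes tested 39.1% rose and 9.70% fell as deposited, and 16.0% and 12.8% without the trend. The shares were 20.2% and 17.8% after quantile normalization, and 15.3% and 24.2% after median centring. The median log2 change of the 8 was 0.24 as deposited, where all genes had 0.30, and 4 of the 8 lay above that median of all genes.

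VLDLR, a lipoprotein receptor reported as an ATF4 target and also as a hypoxia-responsive gene, was the member of this branch that rose under all 4 scalings. It measured 29.56, 25.31 and 23.13 TPM in OGT libraries, against 9.72, 9.46 and 12.54 TPM in control libraries (log2 change 1.23, SE 0.14, limma adjusted p = 6.45e-04), and 0.48 without the trend. SESN2, a stress-inducible inhibitor of mTORC1, measured 84.59, 84.6 and 78 TPM in OGT libraries, against 52.55, 61.24 and 62.58 TPM in control libraries (log2 change 0.48, limma adjusted p = 0.00293). PPP1R15A encodes GADD34, the phosphatase subunit that reverses eIF2α phosphorylation. It measured 444.48, 428.79 and 434.93 TPM in OGT libraries, against 336.51, 346.29 and 365.77 TPM in control libraries (log2 change 0.32, limma adjusted p = 0.00114). SESN2 and PPP1R15A kept similar changes without the trend, 0.35 and 0.30, but after median centring neither was called and PPP1R15A was at -0.070.

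DDIT3, which encodes the proapoptotic factor CHOP, measured 38.53, 43.45 and 47.46 TPM in OGT libraries, against 36.13, 30.74 and 27.16 TPM in control libraries. Its log2 change was 0.45 (limma adjusted p = 0.0208), and 0.42 without the trend. The call was lost after median centring (0.064) and after quantile normalization (0.19), as well as without OGT replicate 2 or 3 or control replicate 2 or 3 (0.36 to 0.45, limma adjusted p from 0.0523 to 0.0603). DDIT3 also shares up to 287 exonic bases with the oppositely oriented gene MARS, at 422.35 to 461.05 TPM in OGT libraries and 325.74 to 397.66 TPM in control libraries. The strand of the libraries is not stated, so reads of the overlap cannot be told apart and DDIT3 is uncertain.

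CEBPB, which encodes a partner of CHOP and ATF4, measured 99.83, 104.77 and 105.34 TPM in OGT libraries, against 92.62, 91.26 and 92.63 TPM in control libraries. The shift was small (log2 change 0.16, limma adjusted p = 0.0256), it was called higher without the trend (0.26) and lower after median centring (-0.23, limma adjusted p = 0.015). Its call was also lost without OGT replicate 2 or 3 or control replicate 2 or 3 (0.15 to 0.17, limma adjusted p from 0.0571 to 0.0905). TRIB3, a pseudokinase induced by CHOP, measured 332.52, 328.43 and 315.94 TPM in OGT libraries and 281.75, 298.67 and 317.76 TPM in control libraries. It was not called (log2 change 0.12, limma adjusted p = 0.0941), but it was without control replicate 3 (0.17, limma adjusted p = 0.0389), and after median centring it was called lower (-0.27, limma adjusted p = 0.0107). NUPR1, a small chromatin-associated stress protein, measured 254.44, 271.84 and 349.35 TPM in OGT libraries and 291.43, 330.54 and 345.9 TPM in control libraries. OGT replicate 3 was as high as the highest control library, and without it NUPR1 was called lower (-0.29, limma adjusted p = 0.0295, against -0.15 and limma adjusted p = 0.351 with it). NUPR1 was also called lower after median centring (-0.54) and without the trend (-0.61), where its reference transcript has 5491 bases and need not be the one expressed.

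Members of the serine pathway lay on both sides of 0. Of its 5 members 3 rose and 1 fell as deposited, against 2 and 1 without the GC and length trend, 2 and 2 after median centring, and 3 and 2 after quantile normalization. The shares of all genes tested were 39.1% and 9.70% as deposited, and 16.0% and 12.8% without the trend. They were 15.3% and 24.2% after median centring, and 20.2% and 17.8% after quantile normalization. With 5 members these counts say little about the pathway. PHGDH, the first and committed enzyme of serine synthesis, was close to absent, at 0.89, 1.03 and 1.22 TPM in OGT libraries and 3.04, 1.13 and 2 TPM in control libraries. It was not called as deposited (log2 change -0.53, limma adjusted p = 0.139), but it was called lower after median centring (-0.92) and quantile normalization (-0.90), and without control replicate 2 (-0.77, limma adjusted p = 0.0407). The 2 later enzymes of the same pathway were far more abundant and rose. PSAT1, the aminotransferase, measured 158.89, 151.17 and 148.15 TPM in OGT libraries, against 89.01, 92.03 and 92.32 TPM in control libraries (log2 change 0.74, limma adjusted p = 9.12e-05), and rose under all 4 scalings. PSPH, the phosphatase of the last step, measured 77.97, 66.06 and 75.21 TPM in OGT libraries, against 44.99, 39.41 and 54.22 TPM in control libraries (log2 change 0.66, limma adjusted p = 0.00466), and was not called after median centring (0.27).

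In mitochondria SHMT2 converts serine to glycine, and MTHFD2 oxidises the one-carbon unit so released. SHMT2 measured 439.35, 430.8 and 418.48 TPM in OGT libraries, against 478.93, 465.49 and 451.01 TPM in control libraries. The fall was small but called under all 4 scalings (as deposited -0.11, limma adjusted p = 0.0464, and -0.23 without the trend). As deposited it was lost without any 1 of OGT replicates 1, 2 and 3 or control replicates 1 and 2 (-0.13 to -0.093, limma adjusted p from 0.0692 to 0.113). MTHFD2 measured 132.66, 134.7 and 118.41 TPM in OGT libraries, against 79.22, 81.85 and 75.66 TPM in control libraries (log2 change 0.70, limma adjusted p = 3.14e-04). The groups were well apart, yet the change was -0.045 without the trend, where MTHFD2 was not called.

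Ratios of 2 members within 1 library do not change when all its values are multiplied by 1 factor. They can change with quantile normalization, and they can still depend on GC content and transcript length. The 9 ratios plotted were chosen after the values were seen, and with 3 libraries against 3 an exact two-sided permutation test cannot go below 0.10, so they are given without a test. HSPA5 over ATF4 was 0.529, 0.508 and 0.506 in OGT libraries, against 0.259, 0.28 and 0.281 in control libraries. BiP mRNA thus stood higher relative to ATF4 mRNA in every OGT library. Without the trend the log2 change of HSPA5 was 0.36 and that of ATF4 0.037, closer together than as deposited (0.94 and 0.037). CRELD2 over HSPA5 was 0.153, 0.166 and 0.181 in OGT libraries, against 0.447, 0.398 and 0.421 in control libraries, and MANF over HSPA5 averaged 0.379 ± 0.0188 in OGT libraries and 0.927 ± 0.0159 in control libraries (SD, n = 3 each). As deposited CRELD2 was at -0.39 and MANF at -0.34, against 0.94 for HSPA5. Without the trend they were nearer, at -0.25 and -0.23, against 0.36. Within pairs of the same kind, HSP90B1 over HSPA5 averaged 0.231 ± 0.0118 in OGT libraries and 0.139 ± 0.00546 in control libraries. PDIA4 over PDIA6 averaged 0.765 ± 0.0448 in OGT libraries and 0.515 ± 0.0482 in control libraries, so these isomerases did not keep their proportion. CALR over CANX averaged 12.8 ± 0.996 in OGT libraries and 20.9 ± 0.930 in control libraries, but without the trend their log2 changes were alike (0.35 and 0.36). PSAT1 over SHMT2 averaged 0.356 ± 0.00553 in OGT libraries and 0.196 ± 0.00953 in control libraries. MTHFD2 over SHMT2 averaged 0.299 ± 0.0151 in OGT libraries and 0.170 ± 0.00547 in control libraries. Without the trend the log2 changes of MTHFD2 and SHMT2 were closer, -0.045 and -0.23. For DDIT3 over ATF4 the means were nearer, 0.0742 ± 0.00729 in OGT libraries and 0.0552 ± 0.00666 in control libraries.

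**Figure D4:**
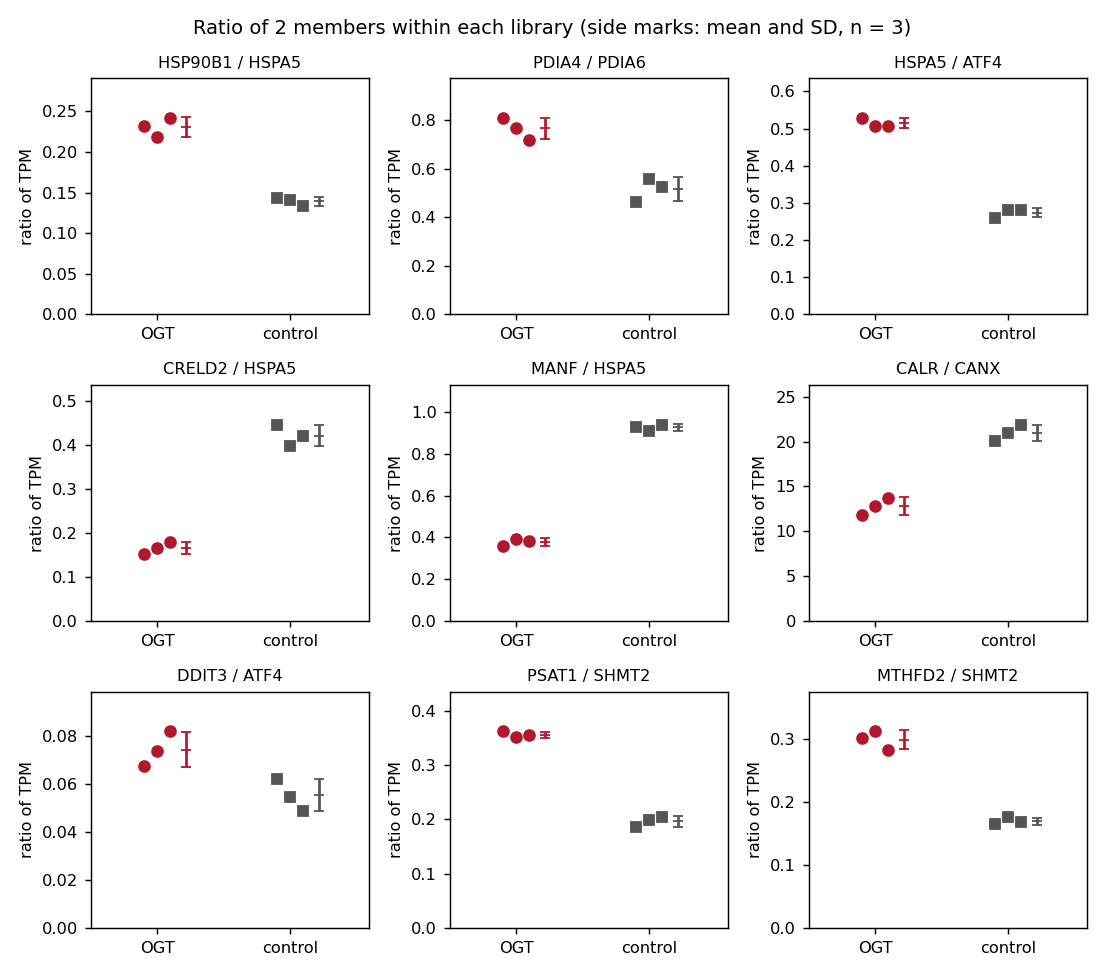
Ratio of the TPM of 2 members within each library, OGT libraries (red circles) left of control libraries (grey squares), with mean and SD beside them (n = 3 each) and each axis from 0. In each of the 9 panels the groups are apart; CRELD2 and MANF over HSPA5 are lower in OGT libraries and HSPA5 over ATF4 is higher.

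GC content and length of the transcript, which the choice by name did not use, went with the change. Across the 35 members the log2 change fell with the GC content of the reference transcript (Spearman rho -0.737, across genes, which are not independent replicates), and it rose with transcript length (rho 0.594). Over 12348 tested genes with a reference transcript the same correlations were -0.472 and 0.386. In the class of up to 45% GC the 11 members had a median of 0.89 as deposited, where all genes of that class had 0.70, and 10 of them rose. The 13 members above 45% and up to 55% GC had 0.65 (all genes 0.33), with 10 higher and 1 lower. The 11 members above 55% GC had 0.12 (all genes 0.046), with 5 higher and 2 lower. Without the trend the medians of the 3 classes were 0.22, 0.34 and 0.13, and rho with GC content was -0.154. Whether the trend arose in the cells or in the making of the libraries was not tested. MANF (54.4% GC, 1153 bases) and CRELD2 (60.7% GC, 1577 bases) have GC content similar to that of CALR (53.9% GC, 1903 bases) and SESN2 (59.6% GC, 3453 bases). They are shorter, and their changes had the opposite sign under all 4 scalings, although after median centring CALR (0.0058) and SESN2 (0.094) were not called. Without the trend MANF had -0.23 and CRELD2 -0.25, against 0.35 for CALR and 0.35 for SESN2. DDIT3 (49.7% GC, 1067 bases) is shorter still and rose as deposited (0.45). It was not called after median centring (0.064) or quantile normalization (0.19), and its overlap with MARS leaves it uncertain. The part of GC content and of length in these differences was not tested.

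**Figure D5:**
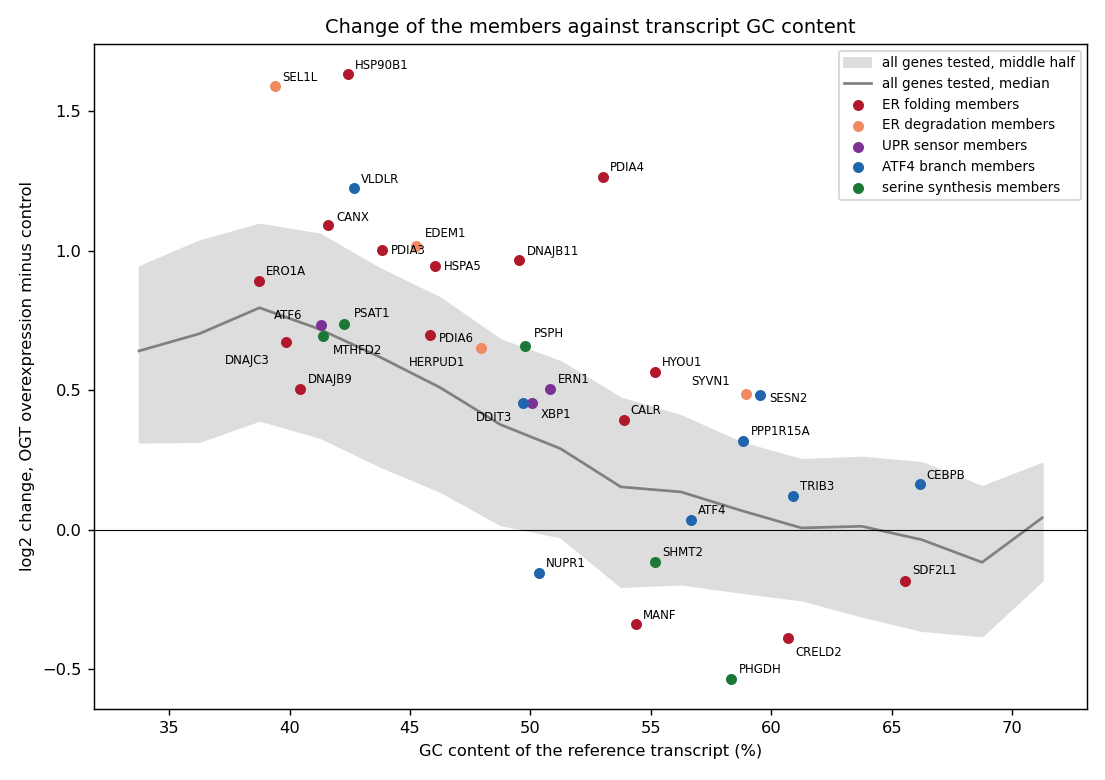
Log2 change of each member as deposited against the GC content of its reference transcript (GENCODE release 29), coloured by role. The grey line and band give the median and the quartiles of all tested genes in bins of GC content; the median falls with GC, HSP90B1, PDIA4 and SEL1L are among those above the band, and MANF, CRELD2, PHGDH and NUPR1 lie below it, although MANF and CRELD2 as well as NUPR1 are called lower without this trend and PHGDH is not.

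A further 117 genes of the same pathways were listed by function, and 108 of them were tested. Their counts are to be read against the shares of all genes given above, 39.1% higher and 9.70% lower as deposited, 16.0% and 12.8% without the trend, 15.3% and 24.2% after median centring, and 20.2% and 17.8% after quantile normalization. Of 22 tested ER folding genes besides the members, 13 rose and 2 fell as deposited (median log2 change 0.63), against 6 and 1 without the trend, 6 and 5 after median centring, and 8 and 4 after quantile normalization. Those with the smallest adjusted p were P4HB (log2 change 0.62), the founding disulfide isomerase, the isomerase TXNDC5 (0.91), the sulfhydryl oxidase QSOX1 (0.64) and the chaperone CNPY3 (0.32, but -0.066 after median centring). P4HB measured 1109 ± 24.4 TPM in OGT libraries and 722 ± 13.9 TPM in control libraries (SD, n = 3 each). The 2 that fell were prolyl isomerases of the ER. FKBP2 measured 193 ± 7.88 TPM in OGT libraries and 347 ± 14.1 TPM in control libraries (-0.85, and -0.57 without the trend). PPIB measured 993 ± 26.7 TPM in OGT libraries and 1200 ± 38.5 TPM in control libraries (-0.27), and was not called without the trend (-0.062). FKBP2 was lower under all 4 scalings, as were CRELD2 and MANF.

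Of 24 tested degradation genes besides the members, 16 rose and 3 fell as deposited, against 5 and 4 without the trend, 6 and 6 after median centring, and 12 and 3 after quantile normalization. Without the trend both counts are near the shares of all genes (16.0% and 12.8%), as is the count of lower genes after median centring (24.2%). DERL3 is among those that rose as deposited and without the trend. It measured 1.04, 1.03 and 2.1 TPM in OGT libraries and 0.43, 0.19 and 0.07 TPM in control libraries. It thus passed the filter on low values through the OGT libraries alone and had to be higher there, so its call lends nothing to these counts. OS9 and ERLEC1, lectins that hand glycoproteins to the SEL1L complex, rose under all 4 scalings (as deposited 0.71 and 1.27). OS9 measured 167 ± 6.39 TPM in OGT libraries and 102 ± 2.45 TPM in control libraries (SD, n = 3 each). The other rises named by the rule were FAF2 (1.07) and the ligase RNF139 (1.04). The 3 that fell were the ligase RNF5 (-0.50), UFD1, a cofactor of the VCP ATPase (-0.18), and the mannosidase MAN1B1 (-0.16). The call of UFD1 was lost without OGT replicate 1 or control replicate 2 (-0.19 and -0.18, limma adjusted p = 0.0518 and 0.0599). That of MAN1B1 was lost without any 1 of OGT replicates 1, 2 and 3 or control replicates 2 and 3 (-0.17 to -0.14, limma adjusted p from 0.0518 to 0.0903).

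Of 19 tested sensors and eIF2α kinases besides the members, 11 rose and 2 fell as deposited, against 5 and 3 without the trend, 7 and 6 after median centring, and 7 and 4 after quantile normalization. EIF2AK2, which encodes the RNA-activated kinase PKR, measured 19.96 ± 2.33 TPM in OGT libraries and 4.80 ± 0.564 TPM in control libraries (SD, n = 3 each; log2 change 1.85, and 1.09 without the trend). EIF2AK1, which encodes the haem-regulated kinase HRI, had 0.81, the transcription factor CREB3L2 1.24, and MBTPS1, whose protease cuts ATF6, 0.71. The 2 that fell were CREB3 (-0.56) and BLOC1S1 (-0.56), of which BLOC1S1 is known as a target of IRE1-dependent decay and was not called without the trend (-0.41) or without control replicate 1 (-0.48, limma adjusted p = 0.051). EIF2AK3, which encodes PERK and was named after its values were seen, measured 3.57, 6.46 and 4.19 TPM in OGT libraries and 2.12, 1.66 and 2.81 TPM in control libraries. It was called as deposited (0.83, limma adjusted p = 0.0287) and under none of the 3 other scalings, and the call was lost without OGT replicate 2 or 3 or control replicate 1 or 2 (0.62 to 0.88, limma adjusted p from 0.0534 to 0.0912).

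Of 31 tested ATF4 and CHOP targets besides the members, 17 rose and 3 fell as deposited (median log2 change 0.27, where all genes had 0.30), against 11 and 4 without the trend and 12 and 3 after quantile normalization, but 6 and 10 after median centring. The amino acid transporter gene SLC38A2 measured 37.3 ± 0.355 TPM in OGT libraries and 10.02 ± 1.14 TPM in control libraries (SD, n = 3 each; log2 change 1.80, and 1.04 without the trend). The other rises were GARS1 (1.08), a glycyl-tRNA synthetase, the tRNA exporter XPOT (1.51), and the mTORC1 inhibitor DDIT4 (0.48, not called after median centring). The 3 that fell were PYCR1 (-0.21) of proline synthesis, PCK2 (-0.13) and the seryl-tRNA synthetase SARS1 (-0.11). All 3 were called lower after median centring, but without the trend PYCR1 (-0.12) and PCK2 (-0.15) were not called, and PCK2 was not called after quantile normalization (-0.14). These falls were small, and each was lost when single libraries were left out. For PYCR1 these were OGT replicates 1 and 3 and control replicate 3 (-0.22 to -0.16, limma adjusted p from 0.0664 to 0.0884). For PCK2 they were OGT replicates 1 and 2 and control replicates 1, 2 and 3 (-0.15 to -0.10, limma adjusted p from 0.0669 to 0.145). For SARS1 they were OGT replicates 1, 2 and 3 and control replicates 2 and 3 (-0.12 to -0.093, limma adjusted p from 0.0561 to 0.126). Classic targets named after their values were seen did not move as 1 group. ASNS, asparagine synthetase, rose as deposited (0.54, limma adjusted p = 2.79e-04) and after quantile normalization but was not called under the other 2 scalings. ATF3 was not called under any of the 4 scalings (as deposited 0.16, limma adjusted p = 0.487), and neither was CHAC1 as deposited (0.22, limma adjusted p = 0.101), although without the trend CHAC1 was (0.32, limma adjusted p = 0.0449), as it was without OGT replicate 3 (0.31, limma adjusted p = 0.018). ATF3 had -0.00465 without control replicate 3.

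Of 12 tested one-carbon genes besides the members, 4 rose and 1 fell as deposited, whereas 1 rose and 4 fell without the trend, 1 and 3 after median centring, and 2 and 3 after quantile normalization. With 12 genes tested, the counts that rose are near the shares of all genes, 39.1% as deposited and 16.0% without the trend. They therefore say little about these genes. SLC25A32, the mitochondrial folate carrier, rose under all 4 scalings (as deposited 1.54), and SHMT1, the cytosolic counterpart of SHMT2, fell under all 4 (as deposited -0.33). SHMT1 measured 49.2 ± 2.89 TPM in OGT libraries and 62.1 ± 2.66 TPM in control libraries (SD, n = 3 each). The other rises as deposited, MTHFD1 (0.53), TYMS (0.22) and MTHFD1L (0.26), were not called without the trend, and MTHFD1 and MTHFD1L then had -0.059 and -0.066. MTHFD1L also lost its call without OGT replicate 1 or control replicate 2 or 3 (0.26 to 0.27, limma adjusted p from 0.0513 to 0.0564).

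In 17 of the 35 members at least 1 exon overlaps an exon of another annotated gene, and each of the 17 has such an overlap on the opposite strand. DNAJB11 overlaps the coding gene AC068631.2 on the same strand, at 10.16, 19.48 and 23.41 TPM in OGT libraries and 17.69, 8.82 and 4.33 TPM in control libraries, so DNAJB11 is uncertain as well. DNAJB9 overlaps THAP5 and PNPLA8, which are about as low as it is. Besides DDIT3 the partners above 50 TPM in any library were FAU and MRPL49 for SYVN1, both lower in OGT libraries than in control libraries, and AC006030.1 for MTHFD2, at 78.5 to 81.41 TPM in OGT libraries and 64.36 to 66.71 TPM in control libraries. ALG12, which overlaps CRELD2, lay between 12.35 and 19.13 TPM in OGT libraries and between 12.27 and 16.92 TPM in control libraries. Of 20 annotated pseudogenes named after members, 16 were listed at 0 in every library. The highest value of the others was MTHFD2P1, at 8.22, 0.91 and 0 TPM in OGT libraries and 0.07, 2.07 and 0 TPM in control libraries.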

How the data were processed

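RNA-seq libraries of total RNA were made with a TruSeq kit, per the labels' protocols. The authors deposited TPM per gene for 6 libraries, a unit read from column totals of 993935.5 to 996951.6. Which aligner, counter and annotation were used is not given in the sources used here. GRCm38 and mm10 are the builds in the submitters' processing notes, although the gene identifiers are human. TPM keeps no read total, so depth and counting precision are unknown.

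The 12645 genes that reached 1 TPM in 3 or more libraries were fitted on log2(TPM + 1). The tool was limma 3.58.1 under R 4.3.3 (eBayes with trend and robust, two-sided), with Benjamini-Hochberg adjustment over all of them and a threshold of 0.05. The test was tried on simulated data. GC content and length came from the longest GENCODE release 29 transcript of a gene, protein-coding where there is one, for 97.7% of tested genes. Each library's trend on them was removed with natural splines of 4 degrees of freedom, which also centres the libraries and so bears on how many genes count as higher or lower. Groups and replicate numbers came from the sample titles, which state no pairing, so the main fit used none. Alternatives were a pseudocount of 0.1, no filter, a mean of at least 5 TPM, quantile normalization, median centring, eBayes without trend or robust, a replicate block and each replicate left out.

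The members and the lists of other genes were chosen with earlier results of these data known. All members are named, and in each of 5 further lists up to 4 genes with the smallest adjusted p in each direction. EIF2AK3, ASNS, CHAC1 and ATF3 were named after their values were seen. Promoter sequences are from RefSeq (GRCh38.p14).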

Additional observations from a re-analysis of the deposited data

How the results depend on the processing

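The 35 members numbered 25 higher and 3 lower as deposited (39.1% and 9.70% of all genes tested). After median centring they numbered 13 higher and 9 lower (15.3% and 24.2%). By role, median centring gave 7 folding, 2 degradation, 1 sensor, 1 ATF4 branch and 2 serine members higher, and 3 folding, 4 ATF4 branch and 2 serine members lower. Removing the GC and length trend gave 2 degradation members and 1 sensor higher and 1 ATF4 branch member lower. Quantile normalization gave 3 ATF4 branch members higher and 2 serine members lower. With no filter and with a replicate block 3 ATF4 branch members were higher and 0 serine members lower, and without trend or robust in eBayes 0 serine members were lower. With each replicate left out, the members higher ran from 21 to 25 and lower from 2 to 3. By role, the higher counts ran from 9 to 11 (folding), 4 to 4 (degradation), 2 to 2 (sensors), 3 to 5 (ATF4 branch) and 3 to 3 (serine), and the lower counts from 0 to 1 for the ATF4 branch and 0 to 1 for serine.

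Signs turned, with the cause not tested, after removal of the GC and length trend for DNAJB9 (-0.11), DNAJC3 (-0.11), SDF2L1 (0.13), ATF6 (-0.0424), MTHFD2 (-0.0446), MTHFD1 (-0.0594), MTHFD1L (-0.0661) and ATF3 (-0.0125), of which ATF6, MTHFD2, DNAJC3, MTHFD1 and MTHFD1L were called higher as deposited. After median centring they turned for ATF4 (-0.35), TRIB3 (-0.27), PPP1R15A (-0.0697), CEBPB (-0.23), CNPY3 (-0.0657), MTHFD1L (-0.13), TYMS (-0.16), CHAC1 (-0.17) and ATF3 (-0.23). After quantile normalization they turned for ATF4 (-0.0219) and ATF3 (-0.15), and without control replicate 3 for ATF3, whose change ran from -0.00465 to 0.277 with each replicate left out. A pseudocount of 0.1 changed no call among the members. Same-numbered libraries showed no shared deviation: their deviations correlated at -0.0194, 0.00264 and 0.0166, and 1 of the 6 libraries was most like another of its number. Whether they were handled together is not stated, and these values cannot decide it. With the replicate block 22 members were higher and 2 lower, while the median log2 change of the members stayed at 0.57.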
